A study of Mus musculus with 4 samples.

Results

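Open chromatin at the calcineurin and NFAT genes was compared among 4 mouse muscles. The 10 genes were Ppp3ca, Ppp3cb and Ppp3r1, which encode calcineurin subunits, Nfatc1, Nfatc2, Nfatc3, Nfatc4 and Nfat5, which encode NFAT transcription factors, and Rcan1 and Rcan2, which encode regulators of calcineurin. Peaks belonged to a gene when the authors' annotation named it as the nearest gene. In all, 175 of 120839 peaks were assigned to these 10 of the 17157 genes with a peak, and they merged into 80 of 53883 regions when peaks of different muscles that shared at least 1 bp were joined.

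Calcineurin is a phosphatase that calcium and calmodulin switch on. It removes phosphate groups from the NFATc proteins, which then enter the nucleus, and in skeletal muscle this pathway is known for its part in the slow-fibre programme that follows sustained nerve activity. Nfat5 responds to osmotic stress and does not need calcineurin, whereas the Rcan proteins bind calcineurin and can inhibit it.

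The data were ATAC-seq peak lists, in which the transposase Tn5 marks accessible DNA, from wild-type mice labelled C57BL/6 that the design describes as sedentary. The study's methods name male C57BL/6J mice. Extensor digitorum longus (EDL) and quadriceps (Quad) are mostly fast muscles, soleus (Sol) is a slow oxidative muscle, and the diaphragm (Dia) works continuously. One list per muscle was analysed here, each labelled as pooled, so no difference between muscles has a replicate check and none was tested. Whole frozen muscle was used, so the nuclei came from every cell type in the tissue.

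The lists held 21582 to 40337 peaks of 188 to 232 bp, Quad having the most and Dia the fewest, and the depth inferred from the scores was 78.1 to 105 M tags (M, mega). Each peak carried the authors' score, a tag count scaled by library size. Since lists differ in depth, width and threshold, a score is given below as its percentile among the peaks of its own list, followed where needed by the 95% range that an exact Poisson interval of the inferred tags allows. These ranges and the Wilson intervals of shares cover counting error only. A percentile also depends on the length of its list, since a list with more weak peaks places the same site higher, and Quad was the longest list and Dia the shortest. Absence of a peak says only that the threshold of that library was not reached at that place.

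The genes held 48 peaks in EDL and 55 in Quad, with 47 in Sol and 25 in Dia. Per 10000 peaks of the list this was 15.9 in EDL (11.7 to 21.1) and 13.6 in Quad (10.3 to 17.7), and 16.3 in Sol (12 to 21.7) and 11.6 in Dia (7.50 to 17.1), and these counting ranges overlapped. Dia therefore had the fewest peaks at these genes both in number and per list. When each list was cut to its 20000 highest-scored peaks, the genes kept 28 in EDL and 26 in Quad, with 30 in Sol and 21 in Dia, so that the order of EDL, Quad and Sol depended on list length.

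Fewer peaks were found in Dia than in every other list at 6 of the 10 genes, Nfatc1, Nfatc2, Nfatc3, Ppp3ca, Ppp3cb and Rcan2. The same held for 21.0% of all genes with a peak and for 25.7% of the genes with 4 or more peaks in all, which every one of the 10 genes had. Quad had more peaks than Sol at 4 of the 10, Nfatc1, Nfatc2, Ppp3ca and Rcan1, against 45.7% of all genes and 44.8% of those with 4 or more peaks. Only Nfatc4 had fewer in Quad than in Sol, against 12.4% of all genes. A low count in Dia was thus more frequent at these genes than in either background, whereas a higher count in Quad was about as frequent. Neither background was matched for peak number, however. Over the lists, 4 of the 10 genes had 20 or more peaks, against 5.71% of all genes. The part of peak number and list length in the low Dia counts was not tested.

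**Figure D1:**
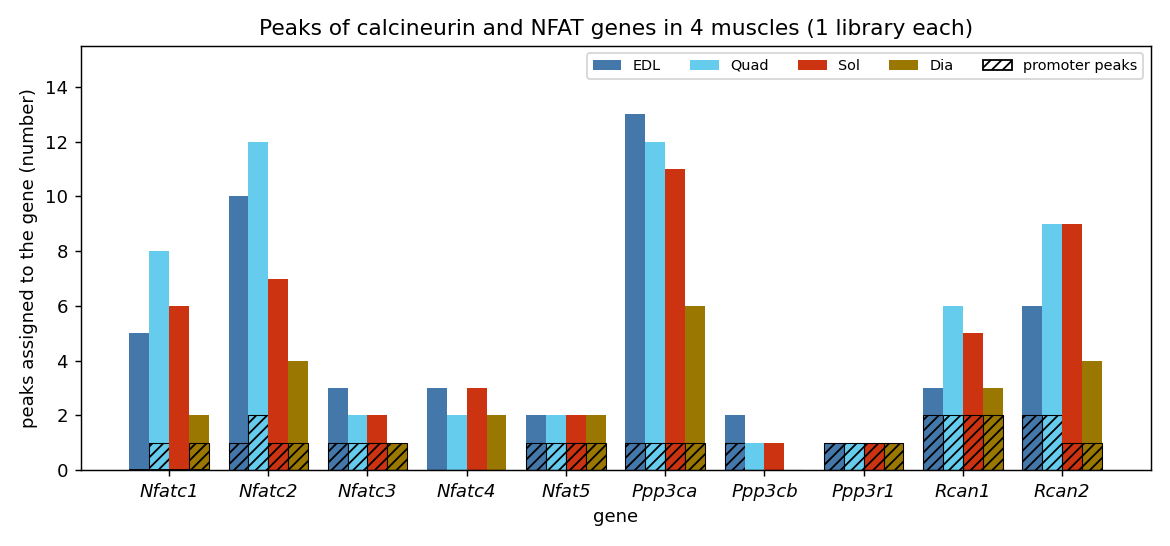
Number of peaks assigned to each gene (y axis) in EDL, Quad, Sol and Dia (bars, 1 pooled list each), with the hatched part showing promoter peaks. Ppp3ca had 13, 12, 11 and 6 peaks in that order, whereas Ppp3r1 had 1 peak, at its promoter, in each muscle.

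Ppp3ca encodes the alpha catalytic subunit of calcineurin and was the gene with the most peaks, 13 in EDL and 12 in Quad, and 11 in Sol and 6 in Dia. Its 42 peaks placed it at percentile 99.5 of all genes. Along the 273 kb of gene body and 5 kb upstream this came to 4.40 peaks per 100 kb in EDL and 4.40 in Quad, with 3.67 in Sol and 1.83 in Dia, close to the 4.47 of Nfatc1 in EDL and below its 8.05 in Quad and 5.36 in Sol. Genes with 20 or more peaks over the lists numbered 4 of the 10, Ppp3ca, Nfatc2, Rcan2 and Nfatc1, against 5.71% of all genes.

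The Ppp3ca promoter was among the most accessible sites of every muscle. Its score percentile was 97.4 in EDL and 97.9 in Quad, and 97.7 in Sol and 96.9 in Dia, with 200 to 250 inferred tags. The counting ranges of the 4 muscles overlapped.

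All but 2 of the other 19 Ppp3ca regions lay in the introns, mostly introns 1 and 2. Open in every list were a region 34.6 kb into the gene (54.4 in EDL and 45.0 in Quad, with 21.9 in Sol and 29.6 in Dia), a region at 55.2 kb (71.3, 75.2, 69.3 and 49.7 in the same order) and a region at 133 kb (67.1, 69.8, 61.8 and 35.4). Sol had the lowest percentile at 34.6 kb, and Dia at 55.2 and 133 kb. In Dia, the range at 133 kb was 12.3 to 54.6, which overlapped the ranges of Sol (46.4 to 74.5) and EDL (53.0 to 77.8) and stayed just below that of Quad (55.1 to 80.6).

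Peaks found in a single list were weak at Ppp3ca, with the exception of a Quad peak in intron 1, 52.6 kb from the TSS, at percentile 56.8. The others were 2 Quad peaks at 7.89, 2 EDL peaks at 6.46, 2 Sol peaks at 21.9 and 6.65, and 2 Dia peaks at 2.92. Most of the single-list peaks of this gene therefore stood near the lowest scores of their lists.

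Over the 4 lists, the genes with peak numbers closest to those of Ppp3ca were 5430434I15Rik (11, 12, 11 and 6 in EDL, Quad, Sol and Dia) and Myo10 (13, 11, 10 and 6), each with a summed difference of 2. Jun and Zbtb16 differed by 3 and Ablim1 by 4. The likeness covers only the number of peaks in 4 lists.

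Ppp3cb encodes the beta catalytic subunit and had few peaks, 2 in EDL and 1 in Quad, and 1 in Sol and none in Dia. A promoter peak was assigned to it in EDL alone, 55 bp upstream of the TSS, at percentile 70.2 (57.5 to 80.1). The other lists had peaks next to it. A peak lay 118 bp away in Quad (percentile 94.0), 224 bp away in Sol (83.1) and 138 bp away in Dia (75.5), and the annotation gave these to the neighbouring gene 1810062O18Rik. The promoter sequence below is printed because all 4 lists had a peak within or next to it while the gene name was given in EDL only. It is the RefSeq window from 250 bases before to 50 after the start at chr14:20546524-20546823 (GRCm38.p6, minus strand), with the NFAT core GGAAA on either strand in capitals.
Ppp3cb promoter: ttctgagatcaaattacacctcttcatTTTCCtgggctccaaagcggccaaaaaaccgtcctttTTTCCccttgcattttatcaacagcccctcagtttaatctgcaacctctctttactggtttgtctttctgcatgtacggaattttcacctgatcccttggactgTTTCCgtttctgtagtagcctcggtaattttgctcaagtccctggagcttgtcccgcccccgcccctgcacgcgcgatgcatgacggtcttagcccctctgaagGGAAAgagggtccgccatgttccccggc
The core occurred 4 times in this window, and 2.65% of the 32851 promoters in the RefSeq table held 4 or more. The longer NFAT motif TGGAAA did not occur in it. Such matches describe the letters only and say nothing of binding.

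The remaining Ppp3cb peak lay 29.8 kb upstream inside intron 13 of Usp54, at percentile 13.7 in EDL, 28 in Quad and 29.3 in Sol. Counting by gene body rather than by nearest gene gave Ppp3cb 3 peaks in EDL and 4 in Quad, with 2 in Sol and 1 in Dia, because peaks inside the gene had been assigned to Mss51 or 1810062O18Rik. The count for this gene therefore depended on how peaks were assigned.

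Ppp3r1 encodes the regulatory B subunit, which binds calcium itself. Each muscle had 1 peak for it, at the promoter, with percentiles of 89.7 in EDL and 94.3 in Quad, and 84.5 in Sol and 87.8 in Dia. Quad and Sol stood farthest apart, with counting ranges of 91.2 to 96.6 and 76.8 to 90, which did not overlap. Across all regions shared by Quad and Sol, 71.3% had the higher percentile in Quad.

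Nfatc1, the NFAT whose nuclear entry follows slow-type nerve activity in muscle fibres, had 5 peaks in EDL and 8 in Quad, with 6 in Sol and 2 in Dia. None of its 12 regions was shared by every list. A peak at an annotated start was called in Quad (percentile 85.9) and Dia (77.2) and not in EDL or Sol. About 2 kb upstream of the most distal start, however, every list had a peak. It was split into 2 neighbouring regions, one with peaks in Sol (78.3) and Dia (67.5) and one in EDL (75.8), Quad (89.0) and Sol (77.5), which lay 111 bp apart for Dia, 138 bp for EDL and 170 bp for Quad.

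Within Nfatc1, an intron 6 region was called in EDL (76.7), Quad (56.8) and Sol (52.8). An intron 2 region was called in EDL (67.8) and Quad (38.2). EDL scored highest at both, with counting ranges of 66.1 to 84.6 in intron 6 and 53.9 to 78.2 in intron 2 that overlapped those of Quad (37.3 to 71.5 and 5.93 to 59.5). A Sol peak at an annotated transcript end, 61.6 kb from the TSS, had a percentile of 51.0 and no counterpart in the other lists. A further 5 peaks inside the gene were assigned to Gm2176, among them peaks in Sol at percentile 74.2, in Quad at 65.8 and 45.0, in Dia at 50.6 and in EDL at 34.3, and 2 peaks assigned to Nfatc1 lay in introns of Atp9b.

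Nfatc2 encodes an NFAT that takes part in myofibre growth. It had 10 peaks in EDL and 12 in Quad, and 7 in Sol and 4 in Dia, in 13 regions. The promoter at its upstream start was open in every list, at percentile 69.6 in EDL and 80.8 in Quad, with 62.5 in Sol and 62.9 in Dia. A downstream start had a promoter peak in Quad only, at percentile 30.2, and another Quad peak 550 bp downstream of that start stood at 38.2.

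In introns 5 and 6, which held the other Nfatc2 regions shared by all lists, Sol had the highest percentiles. The intron 6 region scored 57.9 in EDL and 64.9 in Quad, and 79.2 in Sol and 55.1 in Dia, and the intron 5 region 78.4, 71.2, 82.7 and 55.1. In both introns the Sol range, 68.9 to 86.5 and 74.0 to 88.9, overlapped that of Quad (48.7 to 77.7 and 57.4 to 81.5). It lay above that of Dia in intron 5 (37.5 to 69.0) and overlapped it by a fraction of a percentile in intron 6. An intergenic region 132 kb from the TSS beyond the end of the gene also stood highest in Sol (59.4), against 31.5 in EDL and 38.2 in Quad. There the Quad peak overlapped the Sol peak only at its end.

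A pair of Nfatc2 sequences is shown, the promoter open in every list (chr2:168601608-168601907, GRCm38.p6, minus strand, RefSeq) and the Sol peak of intron 5 (chr2:168525005-168525211, mm10, plus strand), with GGAAA or its complement in capitals.
Nfatc2 upstream promoter: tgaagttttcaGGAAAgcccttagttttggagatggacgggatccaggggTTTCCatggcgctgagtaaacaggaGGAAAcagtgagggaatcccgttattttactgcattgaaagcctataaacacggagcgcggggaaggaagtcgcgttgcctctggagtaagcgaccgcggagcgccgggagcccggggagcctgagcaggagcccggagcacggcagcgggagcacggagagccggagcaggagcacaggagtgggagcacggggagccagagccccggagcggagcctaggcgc
Nfatc2 intron 5 peak: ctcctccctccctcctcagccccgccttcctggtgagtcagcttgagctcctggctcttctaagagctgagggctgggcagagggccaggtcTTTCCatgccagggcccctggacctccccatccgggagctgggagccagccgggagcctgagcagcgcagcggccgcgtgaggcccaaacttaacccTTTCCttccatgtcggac
The promoter held 3 cores, 1 of them within a full TGGAAA, and 9.42% of all promoters in the table held 3 or more cores. The intron 5 peak held 2 cores, 1 within TGGAAA, and 1 site for AP-1, the Fos and Jun dimer with which NFAT proteins can bind DNA.

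Nfatc3 encodes an NFAT known to act early in myogenesis. Its promoter was open in all lists at percentiles of 94.4 in EDL and 93.9 in Quad, with 92.5 in Sol and 94.9 in Dia, and the counting ranges of all 4 overlapped. A second peak 586 bp inside the gene was called in EDL alone (56.1). The only distal region lay 15.2 kb upstream in intron 8 of Dus2, with percentiles of 0.652 in EDL, 38.2 in Quad and 27.7 in Sol.

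Nfatc4 had no promoter peak in any list by the authors' annotation, the only one of the 10 genes of which this was true. A region shared by all lists lay 2.1 to 2.2 kb upstream, with percentiles of 53.4 in EDL and 69.8 in Quad, and 58.6 in Sol and 50.6 in Dia. A second region, 1.17 to 1.38 kb upstream and so just outside the promoter limit of 1 kb, was called in EDL (61.8), Quad (59.0) and Sol (51.9), and a weak region 9.3 kb upstream in EDL (4.70), Sol (9.81) and Dia (20). In the region at 1.17 to 1.38 kb the EDL and Quad peaks shared no base and were joined through the Sol peak. In GENCODE the gene starts farther upstream, so that the region shared by all lists lies within 1 kb upstream of that start and the region at 1.17 to 1.38 kb lies inside the gene. The lack of a promoter peak therefore depended on the annotated start. Counting promoters within 1 kb on either side of the authors' TSS changed nothing here. With 5 kb upstream included, this short gene of 10.8 kb had 12.7 peaks per 100 kb in EDL, Quad and Sol and 6.33 in Dia, the highest density of the 10 genes in each list, although it rested on 1 or 2 peaks per list.

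Nfat5, the tonicity-responsive member, had the same 2 regions in every list. The promoter stood at 79.4 in EDL and 87.4 in Quad, with 81.6 in Sol and 80.1 in Dia. An intron 2 region, 30.8 kb from the TSS, stood at 15.4 in EDL and 23.4 in Quad, and 42.7 in Sol and 8.03 in Dia. Sol was highest there, with 68 inferred tags, and its range of 22.7 to 59.8 overlapped those of the other muscles.

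Rcan1 encodes a calcineurin inhibitor from 2 promoters, and both were open in every muscle. The upstream promoter, which starts the long transcript, had percentiles of 97.6 in EDL and 98.1 in Quad, with 95.6 in Sol and 94.9 in Dia, the latter with 200 inferred tags. The internal promoter starts the short transcript, known as a target that calcineurin and NFAT induce. It stood at 77.6 in EDL and 89.0 in Quad, and 82.0 in Sol and 75.1 in Dia. In each muscle the internal promoter ranked below the upstream one by more than their counting ranges. The RefSeq windows of both (GRCm38.p6, minus strand, chr16:92466120-92466419 upstream and chr16:92400029-92400328 internal) are printed because they differ in NFAT letters, with GGAAA or its complement in capitals.
Rcan1 upstream promoter: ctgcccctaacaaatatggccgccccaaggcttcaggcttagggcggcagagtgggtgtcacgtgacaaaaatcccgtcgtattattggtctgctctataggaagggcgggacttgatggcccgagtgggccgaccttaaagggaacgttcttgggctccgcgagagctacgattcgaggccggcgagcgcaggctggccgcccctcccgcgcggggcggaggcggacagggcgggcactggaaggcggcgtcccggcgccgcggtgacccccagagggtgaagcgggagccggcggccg
Rcan1 internal promoter: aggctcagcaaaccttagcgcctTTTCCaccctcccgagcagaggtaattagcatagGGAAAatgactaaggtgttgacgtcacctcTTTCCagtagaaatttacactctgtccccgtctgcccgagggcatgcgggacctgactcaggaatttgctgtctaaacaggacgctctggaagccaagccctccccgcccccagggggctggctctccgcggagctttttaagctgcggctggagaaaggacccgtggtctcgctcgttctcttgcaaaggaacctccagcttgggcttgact
The upstream window held no core, a GC content of 67.7% and 33 CpG. The internal window held 3 cores, 2 of them within TGGAAA, 1 AP-1 site, a GC content of 56.3% and 14 CpG. A single TGGAAA or more was present in 21.4% of all promoters in the table and 2 or more in 3.03%, while an AP-1 site was present in 5.20%. Both windows were printed for their letters, so these shares describe them and test nothing. The Nfatc4 window in the table, which had no peak in any list, also held 3 cores, 1 of them within TGGAAA.

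Between these promoters, 1 region of Rcan1 intron 1 was shared by all lists, 22.2 to 22.4 kb from the upstream start. Its percentile was 58.7 in EDL and 71.9 in Quad, with 79.9 in Sol and 69.3 in Dia, so Sol was highest and EDL lowest, with ranges of 70.2 to 87.0 and 42.7 to 71.6 that overlapped slightly. The EDL and Dia peaks of this region shared no base and were joined through those of Quad and Sol. The Sol peak (chr16:92443759-92443965, mm10, plus strand) is shown because it, too, held several NFAT letters.
Rcan1 intron 1 peak: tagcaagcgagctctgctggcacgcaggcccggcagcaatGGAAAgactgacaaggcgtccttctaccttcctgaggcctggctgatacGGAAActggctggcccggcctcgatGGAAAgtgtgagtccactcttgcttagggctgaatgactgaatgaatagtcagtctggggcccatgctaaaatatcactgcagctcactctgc
Here 3 cores were found, 2 of them within TGGAAA and all read on the same strand. The other Rcan1 intron peaks belonged to single lists. Quad had 3, at percentiles 66.6, 43.4 and 4.70, and Sol had 2, at 51.9 and 3.33, whereas EDL and Dia had none beyond the shared regions.

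**Figure D2:**
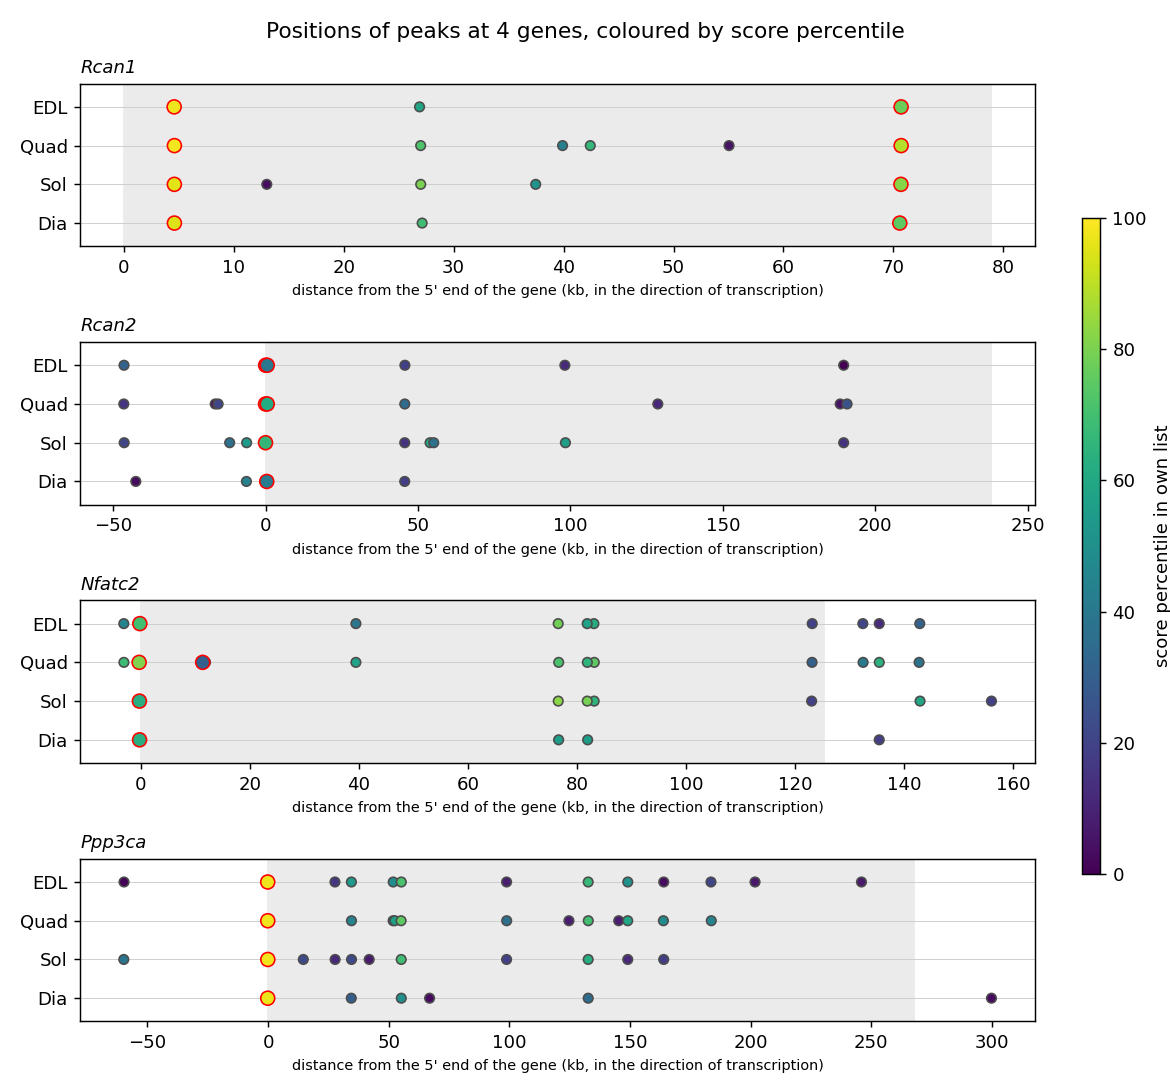
Position of each peak along Rcan1, Rcan2, Nfatc2 and Ppp3ca, in kb from the 5′ end of the annotated gene in the direction of transcription (x axis), by muscle (rows), with grey for the gene body, colour for the score percentile and larger red-rimmed points for promoter peaks. Both Rcan1 promoters appear in all 4 rows, while most points that stand alone in a row are dark, that is, low in their list.

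Rcan2, the family member that thyroid hormone induces, had 6 peaks in EDL and 9 in Quad, and 9 in Sol and 4 in Dia. They fell into 16 regions, of which a single one was shared by all lists, in intron 2, at percentile 18.8 in EDL and 34.4 in Quad, and 14.5 in Sol and 18.4 in Dia. The gene has neighbouring starts. A promoter peak at the first was called in EDL (58.7), Quad (67.4) and Sol (66), and one at the second in EDL (39.6), Quad (61.1) and Dia (41.7). The missing muscle had a peak close by in both cases, 137 bp away in Dia and 182 bp away in Sol, so that every muscle was open at the start of Rcan2.

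Several distal Rcan2 sites were called in Sol and not in Quad. Peaks called in Sol alone were 2 in intron 2, 51.3 and 52.5 kb from the TSS, at percentiles 60.3 (44.3 to 73.5) and 37.0, and 1 located 11.8 kb upstream at 37.0. The peak at 52.5 kb lay largely in masked repeat sequence, 60% of its window. A region 6.2 to 6.3 kb upstream was called in Sol (54.5) and Dia (44.1) and in neither fast muscle. Another intron 2 region stood at 56.1 in Sol (39.9 to 70.2) and 11.9 in EDL (0 to 36.4), with ranges that did not overlap. The EDL peak (chr17:43899423-43899631) and the Sol peak (chr17:43899609-43899815) met only at their ends, however, so these percentiles mostly score different bases. Quad had 5 Rcan2 regions of its own, at percentiles from 2.35 to 25.8, all below those 3 Sol peaks, and Dia had 1 at 2.92.

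The strongest Sol-only peak and the upstream one are printed as examples of peaks called in Sol alone (both mm10, plus strand). The first lies at chr17:43855191-43855397, with the AP-1 (TGAGTCA) and MEF2 motifs in capitals. The other lies at chr17:43789432-43789638, with the NFAT core in capitals.
Rcan2 intron 2 peak: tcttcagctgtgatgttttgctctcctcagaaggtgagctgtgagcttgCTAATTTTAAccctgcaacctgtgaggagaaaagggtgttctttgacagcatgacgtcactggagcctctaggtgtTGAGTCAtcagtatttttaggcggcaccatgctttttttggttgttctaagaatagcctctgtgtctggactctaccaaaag
Rcan2 upstream peak: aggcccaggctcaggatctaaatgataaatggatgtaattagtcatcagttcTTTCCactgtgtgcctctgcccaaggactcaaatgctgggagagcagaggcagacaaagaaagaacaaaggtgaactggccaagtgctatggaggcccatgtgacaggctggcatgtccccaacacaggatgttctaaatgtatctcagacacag
MEF2 proteins act with NFAT in the slow-fibre programme. The intron 2 peak held 1 MEF2 and 1 AP-1 motif but no NFAT core. The MEF2 motif also occurred in a Quad-only region of Ppp3ca, a Quad-only region of Rcan1 and an Rcan2 region called in EDL and Sol. The upstream peak held 1 core, within a full TGGAAA. Counted by gene body, Rcan2 held a further 7 peaks assigned to Enpp5, including a region with peaks in all lists that scored 77.0 in Sol, 61.0 in EDL, 57.9 in Quad and 47.6 in Dia.

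Taking the 10 genes as a group, a promoter peak was present for 8 genes in EDL and 8 in Quad, and 7 in Sol and 8 in Dia. The share of all genes with a promoter peak in each single list is not given. A promoter peak was present in all 4 lists for 7 genes, Nfatc2, Nfatc3, Nfat5, Ppp3ca, Ppp3r1, Rcan1 and Rcan2, against 40.8% of all genes with a peak and 55.8% of those with 4 or more. Promoter peaks were the strong ones. Their median percentiles were 78.5 in EDL and 87.4 in Quad, and 83.3 in Sol and 80.1 in Dia, compared with 32.3, 38.2, 39.3 and 32.5 for the other peaks. The same medians over whole lists were 74.1 to 81.3 for promoter peaks and 34.1 to 40.0 for the rest.

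Most peaks of these genes were not at promoters. The promoter share was 20.8% in EDL (95% Wilson interval 11.7% to 34.3%) and 20% in Quad (11.6% to 32.4%), and 17% in Sol (8.89% to 30.1%) and 36% in Dia (20.2% to 55.5%), against 30.7%, 25.5%, 31.9% and 41.3% of the whole lists. Only the Sol interval lay wholly below its list. Introns held 25 peaks in EDL and 32 in Quad, with 25 in Sol and 9 in Dia. Peaks more than 50 kb from the TSS made up 41.7% in EDL (28.8% to 55.7%) and 38.2% in Quad (26.5% to 51.4%), and 38.3% in Sol (25.8% to 52.6%) and 28% in Dia (14.3% to 47.6%), against 20%, 23%, 20.9% and 16.3% of the lists. In EDL, Quad and Sol these intervals lay above the share of the whole list, and all such peaks came from Ppp3ca, Rcan2, Nfatc2 and Nfatc1, whose bodies span 107 to 268 kb.

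All 4 muscles shared 16 of the 80 regions, or 20% (12.7% to 30.0%), against 26.9% of all regions. Split by position, 7 of 12 promoter regions (58.3%, 32.0% to 80.7%) and 9 of 68 other regions (13.2%, 7.12% to 23.3%) were common to all lists, close to the 66.1% and 16.0% of the series. Regions with a peak in 1 list numbered 34, or 42.5%, against 42.6%. Joining peaks up to 500 bp apart gave 19 of 75 regions in all lists, since the split sites at Ppp3cb, Nfatc1 and Rcan2 then became regions common to all. The share over all regions is not given for this rule.

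**Figure D3:**
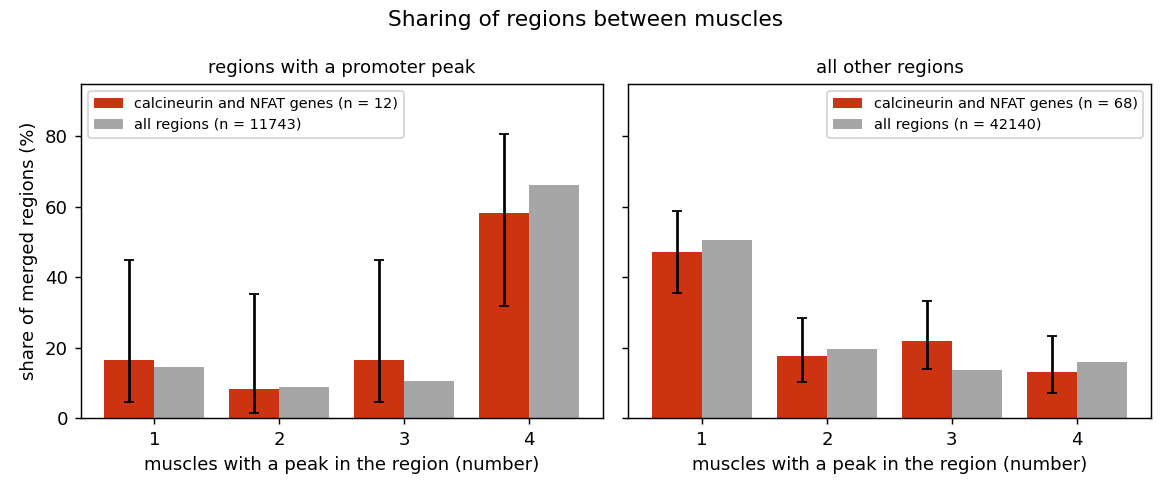
Share of merged regions (y axis, %) with a peak in 1, 2, 3 or 4 muscles (x axis), for regions with a promoter peak (left) and all others (right), red for the 10 genes with 95% Wilson intervals and grey for all regions. The common class held 58.3% of the promoter regions and 13.2% of the others, and every red interval at a promoter region covers the grey bar.

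Some patterns were more frequent at these genes than over all regions, as a description without a test. Regions open in Sol alone numbered 10 of 80, or 12.5% against 8.62%, those in EDL and Sol 4, or 5% against 2.11%, and those in Sol and Dia 2, or 2.5% against 1.20%. Other patterns with Sol went the other way. Regions in Quad and Sol numbered 0, against 3.67%, and those in Quad, Sol and Dia 0, against 1.72%. These Sol counts are small and carry no interval. Regions open in EDL, Quad and Sol but not in Dia numbered 14 of 80, or 17.5% (10.7% to 27.3%), against 8.09% of all regions, and 13 of these were among the 68 regions without a promoter peak (19.1%, 11.5% to 30.0%, against 9.15%). They came from 7 of the genes. Their median percentile was 37.9 in EDL, 43.1 in Quad and 35.4 in Sol, lower than the 57.9, 69.8 and 61.8 of the 9 distal regions that Dia shared. Among the 20000 highest-scored peaks of each list, 5 of 45 regions (11.1%) had this pattern, against 5.58% of all. The Dia list was the shortest and was cut at the highest inferred tag number, 36 tags, and the part of the list length in this last pattern was not tested.

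Between muscles, EDL and Quad shared 38 regions, which were 79.2% of the EDL regions and 69.1% of the Quad regions, against 80.8% and 60.4% in the series. EDL and Sol shared 35, or 72.9% of EDL and 74.5% of Sol, against 68.3% and 71.5%. Quad and Sol shared 30, or 54.5% of Quad and 63.8% of Sol, against 54.0% and 75.6%. Dia shared 19 regions with each of the other muscles. These were 76.0% of the Dia regions in each pair, against 77.3% for EDL, 80.7% for Quad and 77.2% for Sol, but only 39.6% of the EDL regions, 34.5% of the Quad regions and 40.43% of the Sol regions, against 55.4%, 43.2% and 57.9%. Most regions seen in Dia were therefore seen in each other list, whereas most regions of the other lists were not seen in Dia.

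At shared regions of these genes, Quad had the higher percentile than EDL in 29 of 38 (76.3%, against 71.9% of all regions shared by that pair), than Sol in 22 of 30 (73.3%, against the 71.3% given above) and than Dia in 18 of 19 (94.7%, against 84.0%). Sol was above EDL in 21 of 35 (60%, against 50.2%) and above Dia in 13 of 19 (68.4%, against 68.3%), and EDL was above Dia in 13 of 19 (68.4%, against 66.6%). Quad thus had the higher percentile in most pairs, both at these genes and over all regions, and Dia the lower. Quad was also the longest list and Dia the shortest, and the part of list length in these counts was not tested. The 8 regions with Sol above Quad included both shared Nfatc2 introns, the Nfat5 intron and the Rcan1 intron. The widest of these differences were 21.2 points at the Nfatc2 region 132 kb from the TSS, 19.3 at Nfat5 and 14.3 at Nfatc2 intron 6. At the 132 kb region the Quad and Sol peaks overlapped only at their ends, so that difference mostly compares different bases.

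**Figure D4:**
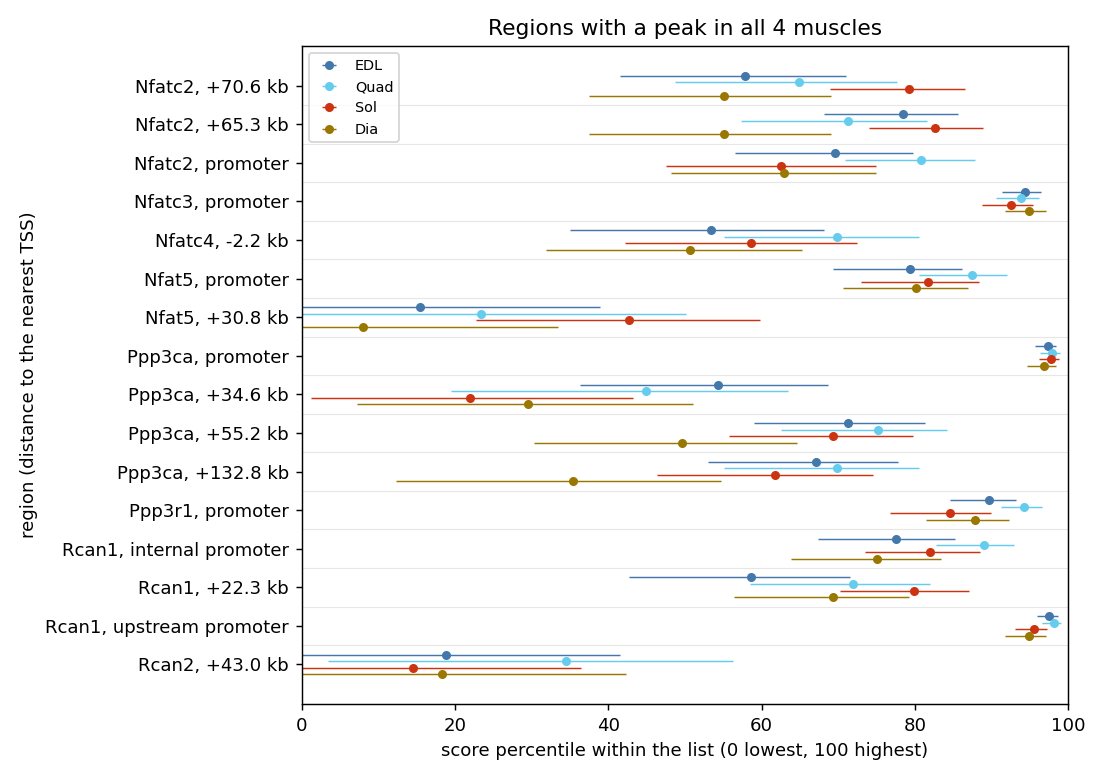
Score percentile within its own list (x axis) of each of the 16 regions with a peak in all 4 muscles (rows, named by gene and distance to the TSS), with points for EDL, Quad, Sol and Dia and bars for the 95% counting range. Promoters of Ppp3ca, Nfatc3 and the upstream Rcan1 start lie above 92 in every muscle. Sol is highest in the introns of Nfatc2, Nfat5 and Rcan1, with ranges that overlap those of Quad. It is lowest at the Ppp3ca region at 34.6 kb and in the Rcan2 intron.

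Sequence letters were compared in 200-bp windows on the 80 regions and on the 53857 regions of assembled chromosomes, on both strands. The NFAT motif TGGAAA was found in 16 of 80 windows, or 20% (12.7% to 30.0%), against 18.1% of all windows, and its core GGAAA, which also counts within TGGAAA, in 53.8% (42.9% to 64.3%) against 50.3%. The NFAT letters were thus about as frequent at the genes of the NFAT pathway as at all open regions. AP-1 (TGAGTCA or TGACTCA) was found in 13 of 80 windows, or 16.2% (9.75% to 25.8%), against 7.52%. Without promoters this was 17.6% (10.4% to 28.4%) against 8.93%, so that both intervals lay above the background. These intervals count each window as independent, although many windows came from the same gene. They also make no allowance for the number of motifs compared, so they are a description and not a test. The AP-1 windows came from Nfatc1, Nfatc2, Nfatc4, Ppp3ca, Rcan1 and Rcan2, with the most in Rcan2, followed by Ppp3ca.

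The E-box CANNTG of myogenic factors was found in 61.2% (50.3% to 71.2%) against 66%, and MEF2 in 5% (1.96% to 12.2%) against 3.90%. Median GC content was 51.8% in the regions of these genes and 53% in all. Among 32851 promoters of the RefSeq table, TGGAAA was present in 21.4% and GGAAA in 61.3%. The table matched 8 of the 10 genes by symbol for the sequences used here.

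**Figure D5:**
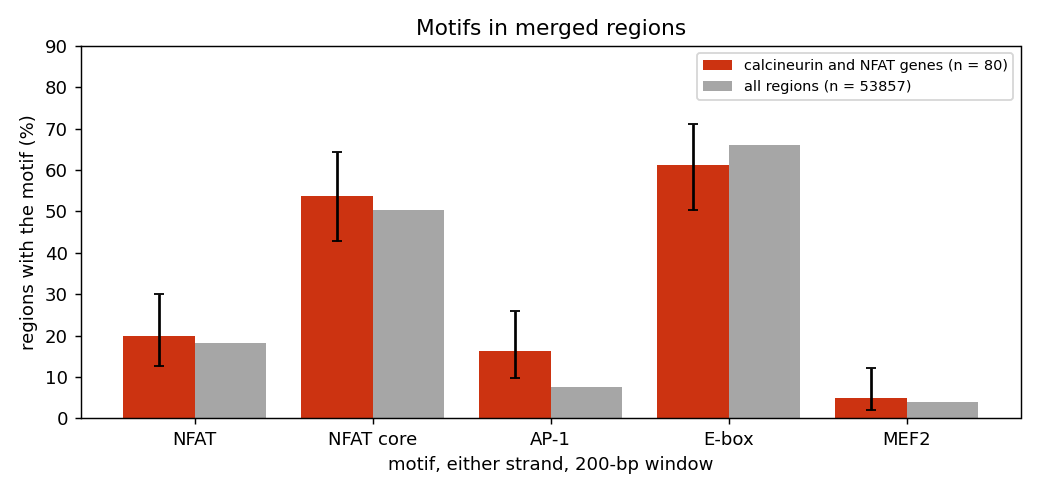
Share of regions with each motif in a 200-bp window (y axis, %) for the 80 regions of the 10 genes (red, 95% Wilson intervals) and for all 53857 regions (grey). AP-1, at 16.2% against 7.52%, is the motif whose interval does not reach the grey bar. The intervals count each region as independent, although many came from the same gene.

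Of 46 other pathway genes, grouped by role, 42 had a peak in EDL and 43 in Quad, with 43 in Sol and 40 in Dia. Quad had more peaks than Sol at 25 of the 46, against 45.7% of all genes, Sol had more at 5, against 12.4%, and 16 were equal. Ppp3r2, the testis form of the B subunit, had none in any list. Among calmodulins, Calm2 had 3, 7, 4 and 4 peaks in EDL, Quad, Sol and Dia. Of the genes for calcium entry and release, Cacna1s, the voltage sensor of the muscle membrane, had 7, 7, 4 and 2 and the calcium sensor Stim1 had 6, 6, 5 and 3.

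Among inhibitors and anchors of calcineurin, Akap6 had 5, 6, 7 and 2 peaks and Myoz2, a calcineurin-binding protein of the slow-fibre Z-disc, had 5, 7, 7 and 3. Of the kinases that return NFAT to the cytoplasm, Dyrk1a had 5, 9, 6 and 3 and Dyrk2 had 4, 8, 4 and 4. The nuclear partner Maf had the widest spread of any pathway gene, 14, 21, 9 and 4, followed by Mef2a with 11, 13, 8 and 5 and, at the same spread, Mef2c with 14, 15, 12 and 7. Of the slow and oxidative target genes, Ppargc1a, the coactivator of mitochondrial genes, had 6, 11, 11 and 9, and myoglobin (Mb) had 4, 6, 4 and 5. The rest of that list was Myh7, the slow myosin, with 2 peaks in Sol and none elsewhere, Tnni1, the slow troponin I, with 1, 0, 1 and 0, and Myh2, a fast oxidative myosin, with 2, 2, 1 and 1.

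Markers of the tissue were checked beside these counts. All 4 muscle fibre markers (Ckm, Acta1, Des and Ttn) had a peak in every list, with 17, 15, 15 and 11 peaks in EDL, Quad, Sol and Dia, and so did all 4 endothelial markers, with 26, 28, 27 and 16. Peaks at leukocyte markers numbered 2 in EDL and 4 in Quad, and 1 in Sol and 0 in Dia, at fibroblast markers 9, 12, 5 and 1, at smooth muscle and pericyte markers 4, 10, 4 and 1, at satellite cell markers 2, 6, 3 and 1 and at Schwann cell markers 2, 4, 2 and 2. Itgam and Sox10 had none. Each list of markers of other cells, like the calcineurin and NFAT genes, had the most peaks in Quad and the fewest in Dia, with Schwann cell markers tied for the fewest. The muscle fibre markers also had the fewest in Dia but the most in EDL. Quad was also the longest list and Dia the shortest, and no share over all genes is given beside these marker counts. The part of other cells and of list length in the counts above was not tested. Fewer nuclei of a type, less open chromatin per nucleus and a shorter list cannot be told apart here.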

How the data were processed

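Each muscle contributed 1 peak list. The authors aligned 42-bp read pairs to mm10 with Bowtie2, called peaks per library with HOMER at a fixed width and gave each the gene with the closest transcription start site (TSS). A peak within 1 kb before or 100 bp after a TSS counted as promoter. The treatment of the Tn5 offset and of mitochondrial reads is not given in the sources used here. The deposited score is the authors' tag count per peak, scaled by library size. Peak positions and distances were used as deposited.

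Python 3.11.15, pandas 2.3.3, numpy 2.4.6, scipy 1.17.1 and matplotlib 3.10.9 were used. Below a score of 10, all scores were whole multiples of 1 step per list, within rounding, taken as the worth of 1 tag. Depth followed from scaling to 10 M tags (M, mega), the HOMER default. Percentiles rank a score within its list, ties at their middle rank. Peaks overlapping by 1 bp or more were merged. A region could therefore join peaks that shared few bases or, through another peak, none. Motifs were searched on both strands in mm10. The step finder, merging and motif search were tested on simulated data. With 1 pooled list per muscle no test was run. Gene bodies came from GENCODE and promoter sequences from RefSeq.

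The 10 genes, the lists and the motifs were chosen with earlier results of these data known. The text names all 10 genes, their peaks in all or in 1 list or of highest rank, pathway genes with the largest spread of peak number (up to 2 per list, 1 gene not reported here) or no peak, and 5 genes nearest in peak number to Ppp3ca. Regions outside that rule, and Mef2c, Myh7, Tnni1 and Myh2, were named after their values were seen. Alternatives were the 20000 highest-scored peaks, gene bodies with 5 kb upstream, 50 kb around the TSS, 50% reciprocal overlap, gaps up to 500 bp, promoters within 1 kb on either side, 300-bp windows, non-promoter regions and, chosen after seeing the data, GGAAA for TGGAAA and regions missing in Dia only.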

Additional observations from a re-analysis of the deposited data

How the results depend on the processing

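Cut to 20000 peaks per list by score, the 10 genes held 28 peaks in EDL, 26 in Quad and 30 in Sol, and within 50 kb of the TSS 28, 34 and 29. Both alternatives take fewer peaks by construction. Dia held 21 and 18. By gene body the numbers were 44, 55, 41 and 23. The share of regions in all 4 lists ranged from 15.4% at 50% reciprocal overlap to 28.9% with 20000 peaks, within the counting interval of the reported 20%. With 20000 peaks, 35.3% of all regions were in all 4 lists. The share missing only in Dia ranged from 11.1% to 16.0%, below the reported 17.5% at each alternative. With 20000 peaks it was 11.1%, against 5.58% of all regions. For the other settings the share over all regions is not given. Promoter counts per list were 8, 8, 7 and 8 under both alternatives run for them. Windows of 300 bp gave 27.5% with the NFAT motif, against 25.8% of all regions, and 20% with AP-1, against 9.60%. GGAAA in place of TGGAAA, chosen after seeing the data, gave 53.8%, a looser motif. No paired analysis was possible because each muscle had only 1 list here, labelled as pooled. Nearest-gene assignment does not show which gene a site acts on, and peaks are not independent of each other.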
